A study of Mus musculus with 4 samples.

Results

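The Ms4a genes (membrane-spanning 4-domains, subfamily A) encode small proteins that cross the cell membrane repeatedly, and the results given here concern 8 of them, Ms4a1, Ms4a4a, Ms4a4c, Ms4a4d, Ms4a6b, Ms4a6c, Ms4a6d and Ms4a7. Each was taken from the deposited table as a row annotated with that 1 symbol, out of 22180 genes with such a row. All 8 had a single row, so the rule for picking among several rows of a gene, by the highest mean over the 4 arrays, was not needed. The 8 genes were chosen with knockout and control values of these arrays already known, so their values are given as a description, without a test.

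Expression was measured on Mouse Gene ST 2.1 array strips in cultured vascular smooth muscle cells (VSMCs), which form the contractile layer of arteries, grown for 5 days from the thoracic aortas of mice after the adventitia had been removed. The knockout group was SM22α-Cre(+)Mmp14(fl/fl)Apoe(−/−) and the control group was SM22α-Cre(−)Mmp14(fl/fl)Apoe(−/−), with 2 arrays each. Both groups therefore carried floxed Mmp14, the gene of the membrane-bound metalloproteinase MT1-MMP, both lacked Apoe, which raises plasma cholesterol, and both had eaten a Western diet for 3 months. The Cre recombinase was driven by the SM22α (Tagln) promoter, which is active in smooth muscle, so other cell types in the cultures would keep Mmp14 unless that promoter was active in them. The design names 2 independent pairs of mice, so variation among animals, cultures and hybridisations enters each p-value as 1 sum. No age of the animals was used here.

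Most Ms4a genes are known from blood cells, where the proteins sit in the plasma membrane or in endosomes and modulate the signalling of receptors beside them. The best known are Ms4a1, which encodes the B cell antigen CD20, and Ms4a2, which encodes the beta chain of the high-affinity IgE receptor of mast cells. In humans MS4A4A is a surface protein of alternatively activated macrophages that associates with the lectin receptor dectin-1, and variants at the MS4A locus are associated with levels of soluble TREM2.

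Mmp14 had log2 values of 8.27 and 8.19 in the knockout arrays, against 8.71 and 9.05 in the control arrays, a difference of -0.65 (SE 0.16) with no overlap (limma across all genes, adjusted p = 0.319). Probes of this row may lie outside the deleted exons, which limits it as a check of the labels. Array medians ran from 3.01 to 3.05, and Pearson's r across rows, which are not independent replicates, was 0.982 between the knockout arrays, 0.981 between the control arrays and 0.974 to 0.980 across groups. With 2 arrays against 2, an exact two-sided permutation test cannot give a p below 0.333. The median of all row means, 3.02, served as the level below which a gene was called dim and was not tested, which left 12550 genes, and limma called 0 of these (0% of genes tested) at a Benjamini-Hochberg adjusted p under 0.05, with 1465 (11.7%) at an unadjusted p under 0.05 and a smallest adjusted p of 0.104. The smooth muscle markers were above that level (9 of 9 tested), and so were 18 of 21 macrophage markers by their mean.

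Windows upstream of the transcription start, on RefSeq assembly GRCm38.p6, were available here for 6 of the 8 genes. There were 7 windows in all because Ms4a7 has 2 starts. Ms4a1 and Ms4a6d had no window, so neither was aligned or searched for patterns. Ms4a6b and Ms4a6c had the same order of arrays by value, but Ms4a4a and Ms4a6d had that order too. The best alignment of the Ms4a4a window had 14 identical bases with Ms4a6b and 11 with Ms4a6c. The 250 bases before the start of Ms4a6b and Ms4a6c are shown because these were the only pair, of 21 pairs of windows, with a long stretch of matching sequence. Both are written 5′ to 3′ in lower case, and the capitals mark the longest run of identical bases, 48 in length. The window of Ms4a6b is chr19:11518309-11518558 and that of Ms4a6c is chr19:11469118-11469367, both on the + strand of GRCm38.p6.
Ms4a6b: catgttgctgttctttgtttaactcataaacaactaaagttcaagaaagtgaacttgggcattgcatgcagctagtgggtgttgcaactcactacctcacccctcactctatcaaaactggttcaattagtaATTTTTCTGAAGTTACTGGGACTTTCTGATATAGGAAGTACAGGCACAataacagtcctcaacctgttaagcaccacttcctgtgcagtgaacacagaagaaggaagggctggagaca
Ms4a6c: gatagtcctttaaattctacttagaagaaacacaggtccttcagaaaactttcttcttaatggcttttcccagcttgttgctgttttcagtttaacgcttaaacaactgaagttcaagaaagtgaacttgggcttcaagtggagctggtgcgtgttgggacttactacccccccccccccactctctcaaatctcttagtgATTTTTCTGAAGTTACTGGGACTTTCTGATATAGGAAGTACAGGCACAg

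The run begins 118 bases before the start of Ms4a6b and 49 bases before that of Ms4a6c. A local alignment of the 2 windows covered 180 columns with 148 identical bases (82.2%). In the other 20 pairs of windows the best alignment had at most 31 identical bases and the longest shared run was 6 to 9 bases. The run holds AGGAAG, the core read by ETS family factors such as the myeloid factor PU.1, which was present on either strand in 29.5% of 32851 windows of the same length from all genes. Of the windows of the 8 genes, AGGAAG was found in those of Ms4a6b and Ms4a6c.

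The pattern GAAANNGAA, a spacing read by interferon regulatory factors, was searched on both strands and was present in 7.13% of all windows. It was found upstream of Ms4a6b, Ms4a6c and both starts of Ms4a7, and not in the windows of Ms4a4a, Ms4a4c or Ms4a4d. In Ms4a6b and Ms4a6c it lies in sequence that their windows share, so these are not separate matches. The Ms4a7 windows are shown because both starts hold this pattern although they share little sequence, with 31 identical bases in their best alignment. Capitals mark the match. The windows are chr19:11334696-11334945 and chr19:11336147-11336396, both on the - strand of GRCm38.p6.
Ms4a7 first window: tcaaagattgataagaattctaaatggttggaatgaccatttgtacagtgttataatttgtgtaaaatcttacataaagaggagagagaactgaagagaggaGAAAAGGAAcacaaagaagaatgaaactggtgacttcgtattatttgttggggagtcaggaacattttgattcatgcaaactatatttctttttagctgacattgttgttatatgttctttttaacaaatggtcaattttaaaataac
Ms4a7 second window: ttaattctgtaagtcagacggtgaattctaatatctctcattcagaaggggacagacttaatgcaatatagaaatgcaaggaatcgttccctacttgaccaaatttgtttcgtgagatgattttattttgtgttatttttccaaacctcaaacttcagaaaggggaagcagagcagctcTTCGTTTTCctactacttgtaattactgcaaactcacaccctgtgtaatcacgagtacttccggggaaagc

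Of the other patterns searched on both strands, TGANTCA (AP-1, 6.75% of all windows) was found in the first Ms4a7 window, TTGCNNAA (C/EBP, 9.56%) in that of Ms4a4d and CACGTG (E-box, 6.02%) in 0 windows of the 8 genes. An NF-kappaB pattern (17.6%) was found in those of Ms4a4a, Ms4a4d and Ms4a6c. Variants gave other counts. The interferon pattern with a fixed spacer (0.481% of all windows) was found in the windows of Ms4a6b and Ms4a6c, again in the sequence they share. The longer interferon pattern (2.98%), the longer ETS pattern GAGGAAG (10.6%), the fixed AP-1 pattern TGACTCA (4.46%) and the STAT pattern TTCNNNGAA (7.02%) were found in 0 of the 7. These 11 patterns are all that were tried, they were chosen after the sequences had been read, and several overlap: the longer ETS, AP-1 and interferon variants are cases of the shorter ones. A match describes letters only.

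The Ms4a genes differed from one another in level and in pattern over the arrays. Ms4a6d, Ms4a7, Ms4a6c and Ms4a6b had both knockout values above both control values, with differences between the means of 0.90 to 1.83 on the log2 scale. Ms4a4d was well above the dim level but its groups overlapped. Ms4a1, Ms4a4a and Ms4a4c were below 3.02 on every array. Over all 8 genes the median difference was 0.70, with 7 means higher and 1 lower in the knockouts (47.1% of all genes had a higher knockout mean), where the median over all 22180 genes was -0.013.

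Without overlap between the groups, 5 of the 8 genes were higher and 1 was lower, where 17.9% of all genes were higher and 22.1% lower without overlap. Among the 5 of them with a mean above the dim level 4 were higher without overlap, against 16.7% of the 12550 genes tested. Ms4a6b is among these, and it passed that level only through its knockout arrays, with 2.80 and 2.51 in the controls. The genes were chosen from this contrast, so nothing is read from these shares. The cultures were measured in bulk, where fewer cells of a type and less RNA per cell cannot be told apart. Probe levels are not compared between genes.

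**Figure D1:**
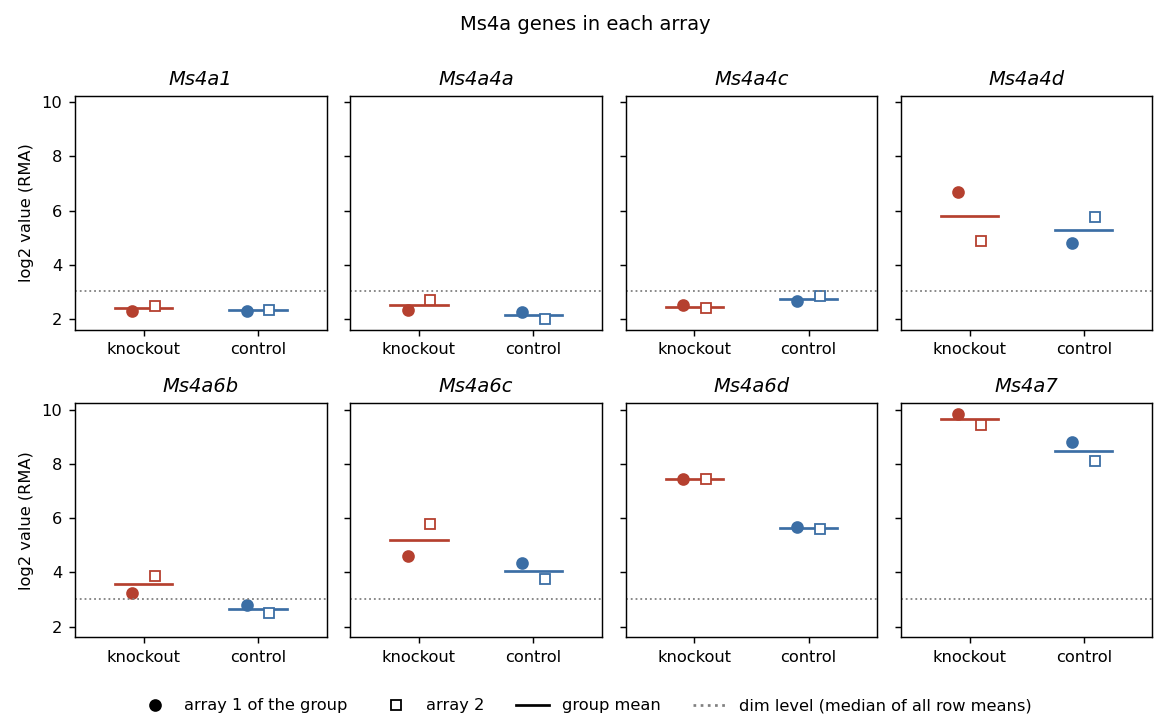
Log2 values of the 8 Ms4a genes, 1 panel per gene, in the 2 knockout arrays (left) and the 2 control arrays (right), with the group mean as a bar and the dim level of 3.02 dotted. The arrays of a group coincide for Ms4a6d, at 7.45 and 7.45 in the knockouts and 5.67 and 5.58 in the controls, and cross between groups for Ms4a4d.

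Ms4a6d, whose protein has been described in mouse macrophages as a partner of the inhibitory receptor VSIG4, had log2 values of 7.45 and 7.45 in the knockout arrays, against 5.67 and 5.58 in the control arrays. The groups were far apart and the arrays within each group nearly equal. The means were 7.45 ± 0.0040 in the knockouts and 5.62 ± 0.059 in the controls (SD, n = 2 each), a difference of 1.83 (SE 0.11), or 3.55-fold. The gap between the lowest knockout and the highest control array was 1.78, the widest of the 8 genes. Only 1.71% of the genes tested had knockout arrays closer to each other, and leaving out any 1 array kept the difference between 1.78 and 1.87.

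Ms4a7, a gene known from macrophages and little expressed in resting microglia, had values of 9.85 and 9.45 in the knockout arrays, against 8.81 and 8.12 in the control arrays. Both knockout arrays were above both control arrays, and the second control array was the lowest. The means were 9.65 ± 0.28 in the knockouts and 8.47 ± 0.49 in the controls (SD, n = 2 each). The difference was 1.18 (SE 0.28), or 2.27-fold, and was 0.84 without control replicate 2 and 1.53 without control replicate 1. Ms4a7 was thus already well above the dim level in the control cultures.

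Ms4a6c, known from mouse monocytes, had values of 4.62 and 5.79 in the knockout arrays, against 4.34 and 3.76 in the control arrays. The second knockout array stood well above the other 3, and the first exceeded the higher control by 0.28. The means were 5.21 ± 0.83 in the knockouts and 4.05 ± 0.40 in the controls (SD, n = 2 each), a difference of 1.16 (SE 0.44), or 2.23-fold. The second knockout array decided much of its size: the difference was 0.57 without knockout replicate 2 and 1.74 without knockout replicate 1. The spread between the knockout arrays exceeded that of 97.8% of the genes tested.

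Ms4a6b, described in mouse T cells, had values of 3.24 and 3.87 in the knockout arrays, against 2.80 and 2.51 in the control arrays. The order of the arrays was that of Ms4a6c, Ms4a4a and Ms4a6d, with the second knockout array highest and the second control array lowest. The means were 3.55 ± 0.45 in the knockouts and 2.66 ± 0.20 in the controls (SD, n = 2 each), a difference of 0.90 (SE 0.25), or 1.86-fold, and 0.58 without knockout replicate 2. Both control arrays were below the dim level, so the gene was among those tested only through its knockout arrays. Cross-hybridisation between transcripts of the Ms4a6 genes was not tested, since probe sequences were not analysed here.

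The T cell list, read beside Ms4a6b, had 10 of its 13 genes measured, and its 3 CD3 chains, which define T cells, differed between the knockout arrays. Cd3d had 2.27 and 3.17 in the knockout arrays, against 2.33 and 2.09 in the control arrays. Cd3e had 2.66 and 3.56 in the knockouts and 2.73 and 2.77 in the controls, and Cd3g had 2.40 and 3.16 in the knockouts and 2.33 and 2.19 in the controls. The second knockout array was thus the only one above 3.02 for the CD3 genes, and it was also the highest for Ms4a6b. The rest of the list was mixed. Cd2, Cd5 and Il7r were higher in the second knockout array than in the first. Cd6 (3.38 and 3.18), Cd8a (3.04 and 2.75) and Zap70 (2.88 and 2.81) were higher in the first, and Cd4 was equal in both (2.86 and 2.86). Of the list, 9 means were higher and 1 lower with a median difference of 0.23, 7 were higher without overlap (background 17.9%), 0 of 2 tested passed, and the summed signal (2 to the power of each log2 value, added over the list) was 295 and 582 in the knockouts and 167 and 209 in the controls. The summed signal is mostly that of Il7r, the interleukin-7 receptor, the highest gene of the list on every array. Il7r had 7.84 and 8.98 in the knockouts and 6.72 and 7.23 in the controls. It was thus above the dim level also in the arrays where the CD3 genes were not. Its part in the Ms4a6b values was not tested. Cd3d, Cd3e, Cd4, Cd5, Cd6 and Cd8a were named after their values were seen.

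Ms4a4d had values of 6.68 and 4.89 in the knockout arrays, against 4.81 and 5.76 in the control arrays. The first knockout array was highest, while the second lay between the controls. The means were 5.78 ± 1.27 in the knockouts and 5.29 ± 0.67 in the controls (SD, n = 2 each), and the difference of 0.50 (SE 0.66) was within that spread. It turned to -0.40 without knockout replicate 1 and was 1.39 without knockout replicate 2. Its spread between knockout arrays exceeded that of 99.4% of the genes tested, and its spread between control arrays that of 96.9%.

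**Figure D2:**
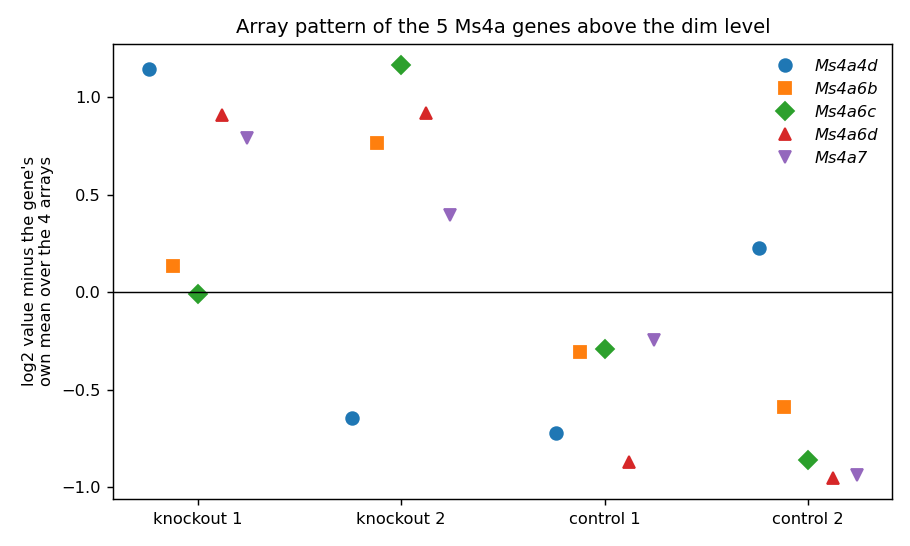
Log2 values of the 5 of the 8 Ms4a genes with a mean above the dim level, each minus its own mean over the 4 arrays, in knockout arrays 1 and 2 and control arrays 1 and 2. Ms4a4d was highest in knockout 1 (1.14), Ms4a6b and Ms4a6c in knockout 2 (0.76 and 1.17), and Ms4a6d was equal in both (0.91 and 0.92).

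Among the macrophage markers, Folr2, the folate receptor beta of tissue-resident macrophages, was likewise higher in the first knockout array, at 7.96 and 5.35 in the knockouts, against 5.04 and 4.48 in the controls. Itgam, the integrin CD11b, ran the other way in the knockouts, at 6.41 and 8.02, against 5.71 and 5.88 in the controls. Itgax, the integrin CD11c from the dendritic cell list, had 6.28 and 8.75 in the knockouts and 5.54 and 6.90 in the controls. The knockout arrays therefore differed in which myeloid genes were highest, as they did for Ms4a4d and Ms4a7 on one side and Ms4a6b and Ms4a6c on the other. For Ms4a4d this likeness covers the knockout arrays only. Its second control array (5.76) exceeded its second knockout array (4.89), unlike in Folr2. The fibroblast markers Dcn and Lum had the array order of Ms4a4d, as did Myh11 of the smooth muscle list and Flt3 of the dendritic cell list. Itgam, Itgax, Dcn, Lum, Myh11 and Flt3 were named after their values were seen. A link between the genes of these lists and the Ms4a values was not tested.

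The 3 dim genes include the family's B cell member. Ms4a1 had values of 2.31 and 2.47 in the knockout arrays, against 2.29 and 2.34 in the control arrays, and the groups overlapped. Its difference was 0.072 (SE 0.12), with -0.011 without knockout replicate 2. The Ms4a1 row was thus below the dim level in both groups. That level is the median of all row means and not a limit of detection.

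Of the B cell list, 15 of 17 genes were measured and 8 of the 15 were below 3.02 on every array. Among those above it, Ebf1, a transcription factor also found in stromal cells, had 7.09 and 5.59 in the knockouts and 5.92 and 5.99 in the controls. Ighm, the heavy chain of IgM, had 3.67 and 3.68 in the knockouts and 3.55 and 4.25 in the controls, and both genes overlapped between the groups and were named after their values were seen. Cd79a and Cd79b, the signalling chains of the B cell receptor, had at most 2.44 and 2.31 in the knockout arrays, and at most 2.93 and 2.40 in the control arrays. The list had 9 means higher and 6 lower with a median of 0.079, and 3 genes were higher and 1, Cd79a, lower without overlap (background 17.9% and 22.1%), while 0 of 5 tested passed. The 2 with the largest differences are also expressed by myeloid cells. Cd37, a tetraspanin, had 5.93 and 6.17 in the knockouts and 4.92 and 4.73 in the controls, and Cd22, an inhibitory lectin, had 4.07 and 5.53 in the knockouts and 3.74 and 3.84 in the controls. The list's summed signal was 295 and 250 in the knockouts and 185 and 193 in the controls.

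Ms4a4a, the mouse counterpart of the human macrophage protein MS4A4A, had values of 2.34 and 2.70 in the knockout arrays, against 2.27 and 2.00 in the control arrays. The groups did not overlap, but the gap between them was 0.071 and all 4 values were dim. Ms4a4c had 2.51 and 2.40 in the knockout arrays, against 2.65 and 2.84 in the control arrays, and was the only one of the 8 with a lower knockout mean, by a difference of -0.29 (SE 0.13). At this level the array gives little room for a lower value, and the sizes for these genes may be understated. A rise from a dim level was still measurable: Ms4a14, a family member with dim control arrays, had a difference of 1.06 (SE 0.22).

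The 21 Ms4a genes of the RefSeq table lie on chromosome 19 in 1 run of 22 protein-coding genes, and 20 of them had a row of their own on the array. In the order of that table, the 5 of the 8 genes with a mean above the dim level are found between Ms4a14 and Ms4a2. Ms4a15, which lies outside this stretch, was also above that level, with 3.51 and 3.35 in the knockouts and 3.49 and 3.35 in the controls. Between Ms4a14 and Ms4a2, dim and higher genes alternate. Ms4a7 is followed by the dim genes Ms4a4a, Ms4a4c and Ms4a4b, then by Ms4a6c, the gene Gm8369, Ms4a6b, Ms4a4d and Ms4a6d. Gm8369 differed by 0.15 (SE 0.21) with overlap. The flanking genes of the run, Ccdc86 and Oosp2, differed by -0.30 (SE 0.25) and -0.036 (SE 0.12), and both overlapped between the groups.

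**Figure D3:**
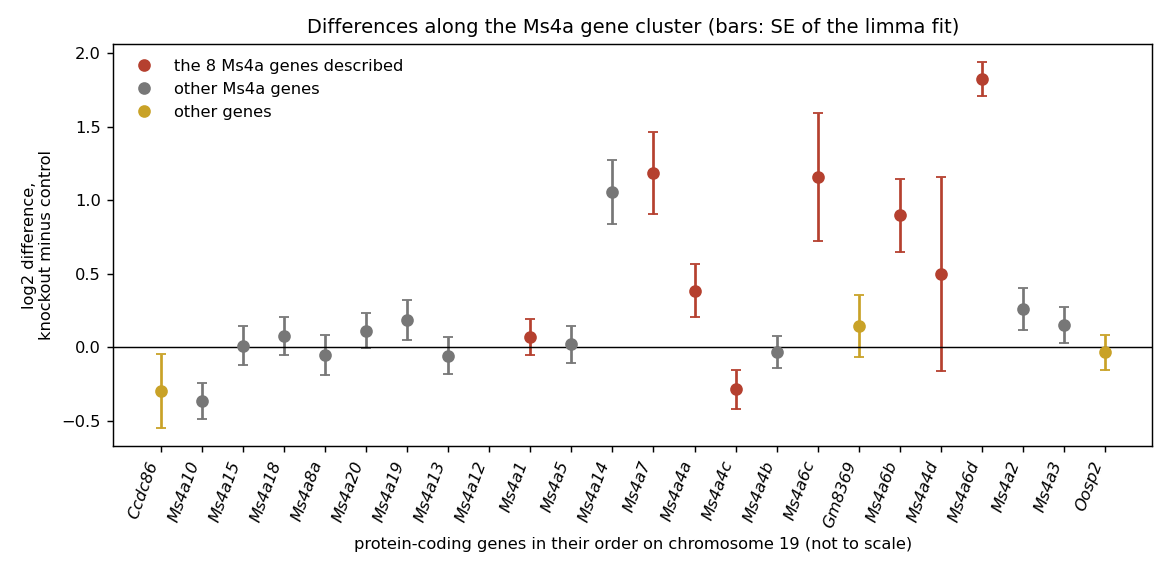
Log2 difference (knockout minus control, with the SE of the limma fit) for the protein-coding genes of the Ms4a run and 1 gene on each side, in their order on chromosome 19. The larger positive differences run from Ms4a14 (1.06) to Ms4a6d (1.83), and Ms4a12 had no row of its own.

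Ms4a14, which directly precedes Ms4a7 in that order, was the other Ms4a gene with a difference of that size. It had values of 3.70 and 3.13 in the knockout arrays, against 2.34 and 2.37 in the control arrays. Both control arrays were dim and both knockout arrays were above 3.02, but the mean over the 4 arrays, 2.89, kept it out of the test. The difference was 1.06 (SE 0.22), and with no filter on dim genes its adjusted p was 0.297 (limma). As with Ms4a7, the first knockout array was the higher of the 2.

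Of the 12 other Ms4a genes, 10 were below 3.02 on every array, and their median difference was 0.049. Ms4a15 was the only one tested and did not pass, with a difference of 0.010 (limma, adjusted p = 0.989). Ms4a2 had 2.51 and 2.76 in the knockouts and 2.45 and 2.31 in the controls. Ms4a3, known from granulocyte and monocyte progenitors, had 2.94 and 2.96 in the knockouts and 2.87 and 2.73 in the controls, and Ms4a4b, known from T cells, had 2.15 and 2.13 in the knockouts and 2.17 and 2.18 in the controls. Ms4a10 had the lowest difference of the 12, at -0.37 (SE 0.12). Differences of Ms4a5, Ms4a8a, Ms4a13, Ms4a18, Ms4a19 and Ms4a20 ran from -0.059 to 0.18. Without overlap, 5 of the 12 were higher and 2 lower, where 17.9% and 22.1% of all genes were.

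Mast cell markers, read beside Ms4a2, were dim on all 4 arrays in 8 of 9 genes, with 0 of 1 tested past the test and a median of 0.014. The exception was Gata2, a transcription factor also expressed in endothelium, which had 3.30 and 3.10 in the knockouts and 4.68 and 4.32 in the controls. Of the 9, which include Ms4a2 itself, 3 were higher and 1 lower without overlap (background 17.9% and 22.1%), and the summed signal was 51.9 and 49.4 in the knockouts and 65.4 and 60.3 in the controls.

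The macrophage markers were higher in the same arrays as the higher Ms4a genes. Of 21 measured, 19 means were higher, 17 were higher without overlap (background 17.9%) and the median difference was 1.00. None of the 18 tested passed (limma, smallest adjusted p = 0.137), and 12 were higher at an unadjusted p under 0.05, as were 4.89% of the genes tested. The summed signal was 6922 and 7868 in the knockouts and 4531 and 4336 in the controls. The part of macrophage content in the Ms4a differences was not tested.

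Beside Folr2, the macrophage genes with the largest differences were Mrc1, the mannose receptor (2.08, SE 0.37), Ptprc, the leukocyte antigen CD45 (1.75, SE 0.14), and Adgre1, an adhesion receptor of mouse macrophages (1.74, SE 0.16). The difference of Ms4a6d, 1.83, lay among these. Lyve1, Cd163 and Timd4, known from resident macrophages of several tissues, were below 3.02 on every array, whereas Folr2 and Ms4a7 were not. Lyz2, lysozyme, differed by 0.22 (SE 0.13) and Cd68 by 0.82 (SE 0.15), less than Ms4a6d or Ms4a7, and were named after their values were seen.

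Genes of receptors linked to MS4A proteins, listed together with genes of receptor signalling, were higher as well. All 12 measured genes of this list, which names 13, had a higher knockout mean and 11 did not overlap (background 17.9%), with a median difference of 0.92, while 0 of 12 passed the test (limma, smallest adjusted p = 0.183) and 7 were higher at an unadjusted p under 0.05 (background 4.89%). Trem2, the lipid-sensing receptor of myeloid cells, had 8.58 and 8.99 in the knockouts and 7.44 and 6.98 in the controls. Fcgr3 and Fcgr2b, receptors for IgG, differed by 1.54 (SE 0.25) and 1.48 (SE 0.37), and Inpp5d, the inhibitory phosphatase SHIP1, by 1.18 (SE 0.24).

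Clec7a, which encodes dectin-1, was the list's exception in overlap, with 4.98 and 8.35 in the knockouts and 5.50 and 6.63 in the controls. The wide gap between its knockout arrays had the direction of Ms4a6b and Ms4a6c, with the second array higher. Clec7a was named after its values were seen. The list's median was 1.28 with knockout replicate 1 left out and 0.62 with knockout replicate 2 left out. Its summed signal was 3629 and 4606 in the knockouts and 2137 and 2010 in the controls.

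Genes of alternative macrophage activation, the state in which human MS4A4A is known, had mixed values. Of 14 genes, 11 means were higher and 3 lower, 5 were higher and 1 lower without overlap (background 17.9% and 22.1%), and the median difference was 0.15, with 0 of 7 tested past the test. Beside Mrc1, Il10ra, the interleukin-10 receptor, differed by 1.19 (SE 0.22) and Arg1, arginase 1, by 1.11 (SE 0.34), and Mgl2, a galactose lectin, by 0.36 (SE 0.12) at a dim level. Below 3.02 on every array were 6 of the 14 genes, as was Ms4a4a. Mrc1, Cd163 and Clec7a of this list stand in the macrophage or partner lists too.

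The interferon response list was read beside the GAAANNGAA pattern and separated the knockout arrays. Its median difference was 0.47 over the 12 of 15 genes measured, 0.019 without knockout replicate 1 and 0.94 without knockout replicate 2, with 4 genes higher and 1 lower without overlap (background 17.9% and 22.1%) and 0 of 9 tested past the test. The summed signal was 514 and 204 in the knockouts and 235 and 212 in the controls. Oasl2, an antiviral gene, had 4.83 and 3.30 in the knockouts and 3.23 and 3.15 in the controls, Ifih1, a sensor of viral RNA, differed by 0.63 (SE 0.25), Ifit3 by 0.35 (SE 0.12) and Ifit2 by -0.64 (SE 0.12). The first knockout array was the higher one for this list, for Ms4a7 and for Ms4a4d, and the lower one for Ms4a6b and Ms4a6c.

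Tetraspan relatives gave a mixed picture. Of 10 genes, 4 were higher and 2 lower without overlap (background 17.9% and 22.1%), with a median of 0.24 and 0 of 10 past the test. Cd53 and Cd37, tetraspanins of leukocytes, differed by 1.24 (SE 0.17) and 1.22 (SE 0.15). Tmem176a and Tmem176b, which are related in structure to the Ms4a proteins, differed by 0.80 (SE 0.38) and 0.49 (SE 0.21), less than Ms4a6d.

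**Figure D4:**
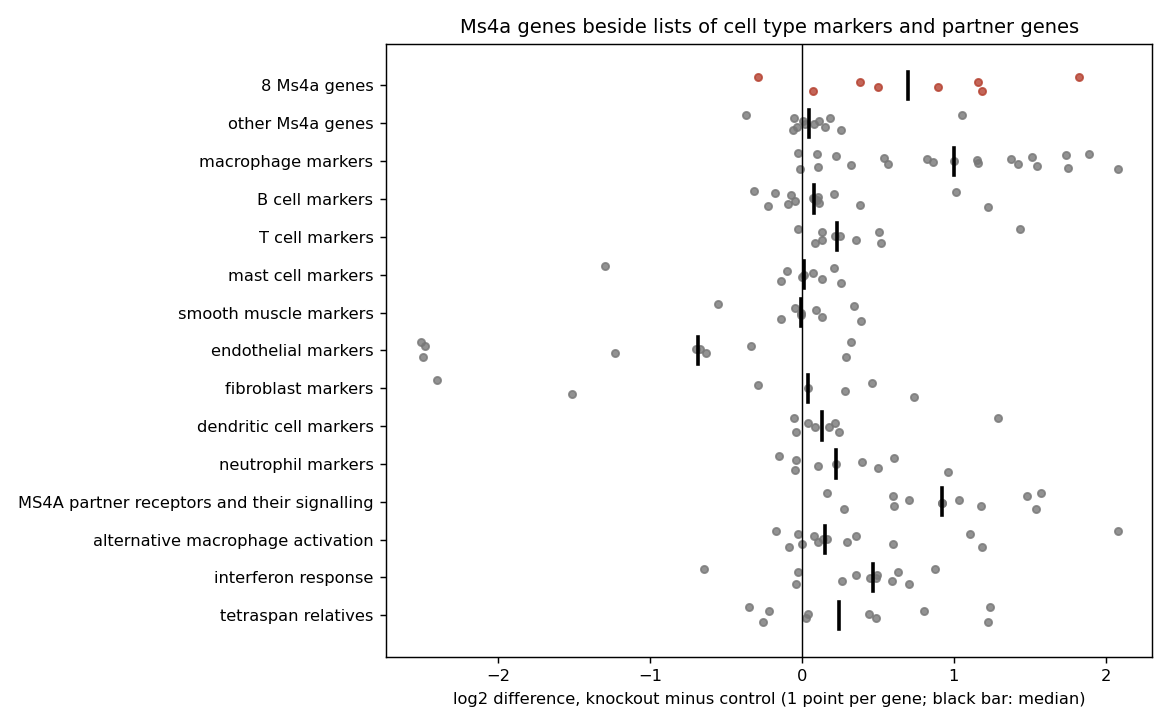
Log2 difference (knockout minus control) of each measured gene, 1 point per gene, for the 8 Ms4a genes, the other Ms4a genes and 13 lists, with the median as a black bar. The medians were 0.70 for the 8 Ms4a genes, 1.00 for macrophage markers, 0.92 for the partner receptors and their signalling, and -0.68 for endothelial markers.

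The remaining cell types were read for their level beside the Ms4a genes. Dendritic cell markers had a median of 0.14 (2 of 8 higher without overlap) and neutrophil markers of 0.22 (1 of 9), each beside a background of 17.9%, with 0 of 4 tested past the test in both lists. Cd209a and Ccr7 differed by 0.22 and 0.18, and Csf3r, the receptor for granulocyte colony-stimulating factor, by 0.39. Smooth muscle markers had a median of -0.0039, which ran from -0.21 to 0.21 when single arrays were left out. Of these 9 genes 2 were lower without overlap (background 22.1%), Smtn, smoothelin, by a difference of -0.55 and Myocd, myocardin, by one of -0.14. Of 7 measured fibroblast markers 4 overlapped, 4 had a higher mean and the median was 0.041. Without overlap, 1 was higher, Col1a1 (0.29), and 2 were lower, Dpt (-1.51) and Cd34 (-2.40), where 17.9% and 22.1% of all genes were. Of the endothelial markers 8 of 10 were lower without overlap (background 22.1%), with Pecam1, Cdh5, Emcn and Erg at -2.49, -2.51, -2.48 and -1.23. None of the tested genes of these lists passed (limma, smallest adjusted p = 0.121).

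The mean pattern of the 8 Ms4a genes, each centred on its own mean over the 4 arrays, was 0.36 and 0.36 in the knockout arrays and -0.31 and -0.40 in the control arrays. Among 11412 other genes tested, left after predicted, Rik, small RNA, olfactory and vomeronasal genes were set aside, the 8 nearest by root mean square distance over the 4 arrays were Kcnk13, a potassium channel subunit (distance 0.029), Rgs14, a regulator of G protein signalling (0.034), Vwa5a (0.045), Rnf130 (0.047), Gramd1b, a sterol transporter (0.049), Pccb, a subunit of propionyl-CoA carboxylase (0.057), Zc3hav1, an antiviral zinc finger protein (0.058), and Fes, a tyrosine kinase of myeloid cells (0.059). Their differences ran from 0.64 to 0.79. The mean hides the opposite ranks of the knockout arrays in Ms4a4d and Ms4a6c, so these genes resemble the average and not each Ms4a gene.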

How the data were processed

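The authors deposited log2 values for 41345 rows on 4 arrays. They used RMA, per the submitters' processing notes. The base of the logarithm was inferred from the values, which span 1.17 to 12.4. Software version, chip definition and build: not given in the sources used here. RNA was amplified from 10 ng, per the labels' protocols. Arrays have no depth, and their number limits the precision.

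Gene symbols came from the platform annotation: 23521 rows had 1 symbol, 1814 several and 16010 none listed. All 20 Ms4a rows had the same symbol in RefSeq by gene number. For 1082 genes with several rows the row with the highest mean was kept. The 12550 of 22180 genes with a mean of at least 3.02 were fitted with limma 3.58.1 (R 4.3.3), knockout minus control, no covariates, Benjamini-Hochberg adjustment. Differences and SEs printed come from the same fit on all 22180 genes. The fit was tested on simulated data. Promoter windows were aligned with Biopython 1.88, and plots drawn with matplotlib 3.10.9.

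The members, lists and tests were chosen with earlier results of these data known. Named genes are all Ms4a genes, Mmp14, Tagln, Apoe, up to 4 non-overlapping genes per list with the largest difference, defining markers at dim levels, the 8 nearest in pattern and the flanking genes. Genes named beyond this are marked. Tagln, whose promoter drove Cre, differed by -0.0070 and Apoe by -0.36 (SE 0.16). Alternatives were other filters, scalings, row choices, moderated variances, the title number as a block and each array left out.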

Additional observations from a re-analysis of the deposited data

How the results depend on the processing

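Of the 11 alternatives, 0 gave a called gene, where 1465 genes had an unadjusted p under 0.05 in the planned fit and 929 to 2125 did under the alternatives (limma, smallest adjusted p 0.0708 to 0.429). Without control replicate 1 it was 975. With the title number as a replicate block, 0 genes were called and 1527 had an unadjusted p under 0.05. Deviations of same-numbered arrays correlated at 0.045 across genes. This cannot decide whether same-numbered arrays were pairs, since each group gives a single deviation per gene. The labels do not say that a number marks a pair, so the planned fit had no block. A list's median was counted as moved when it shifted by more than the SD of that median between arrays of a group, and 35 did so without a change of sign, while 2 did so with one. These 2 were -0.017 for mast cell markers with arrays centred on their median and -0.29 for fibroblast markers under the 75th percentile filter. Smaller shifts also turned the sign of medians near 0: mast cell markers had -0.0091 after a second quantile normalization, smooth muscle markers 0.096 without control replicate 1 and 0.21 without knockout replicate 2, and fibroblast markers -0.17 without control replicate 1 and -0.020 without knockout replicate 1. The 75th percentile filter, which leaves fewer genes, gave 1.18 for the 8 Ms4a genes (3 left) and 1.16 for macrophage markers (17 left). It gave -2.49 for endothelial markers (4 left), 0.30 for alternative activation (5 left) and 0.45 for tetraspan relatives (9 left). B cell markers had 0.80 (2 left). T cell (1.44), dendritic (1.29) and neutrophil markers (0.50) had 1 gene left each, so these are values of a single gene and not of a list. A second quantile normalization gave 1.05 for macrophage and 0.051 for B cell markers, and centring gave 0.97 and 0.048. Without single arrays the median was 0.58 to 0.80 for the 8 Ms4a genes, 0.0062 to 0.092 for the other Ms4a genes, 0.78 to 1.07 for macrophage, 0.022 to 0.093 for B cell, 0.11 to 0.30 for T cell, 0.022 to 0.13 for mast cell, -0.21 to 0.21 for smooth muscle, -0.93 to -0.57 for endothelial, -0.17 to 0.32 for fibroblast, 0.041 to 0.21 for dendritic and 0.032 to 0.30 for neutrophil markers. It was 0.62 to 1.28 for partner receptors and their signalling, 0.16 to 0.27 for alternative activation, 0.019 to 0.94 for the interferon list and 0.029 to 0.37 for tetraspan relatives. Ms4a4d ran from -0.40 to 1.39 and Ms4a1 from -0.011 to 0.15, the only ones of the 8 to change sign. The cause of shifts without single arrays was not tested. Dim genes, 3 of the 8, have little signal over background, so the size of their differences is uncertain.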
